A study of Mus musculus with 5 samples.

Results

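Semaphorins, ephrins, Slits and netrins are extracellular cues that steer growing axons, migrating cells and sprouting vessels, and each acts through its own receptors. Their transcripts were examined in the pituitary of mouse embryos at embryonic day e12.5. Members were taken by gene symbol from the all-gene table, keeping the longest region for a symbol. This gave 61 genes of 20097 gene symbols. They comprise 28 semaphorin-plexin genes (20 semaphorins and 8 plexins), 4 Slit-Robo genes (1 Slit and 3 Robos), 21 ephrin-Eph genes (8 ephrins and 13 Eph receptors) and 8 netrin pathway genes (2 netrins and 6 receptors). By role, 31 are ligands and 30 are receptors. Neuropilins, Plxna4, Slit2, Slit3, Robo2, Ntn3 and Ntn4 were not analysed here.

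The embryos were littermates, and all carried floxed alleles of Itgb1 (Itgb1 f/f) on a B6;129 background. Itgb1 encodes integrin beta 1, the subunit shared by many matrix receptors. The 3 control libraries, numbered 9, 10 and 12, had no Cre. The 2 libraries labelled knockout, numbered 13 and 16, also carried Pitx1-cre (Itgb1 f/f; Pitx1-cre), which acts in oral ectoderm and the pituitary made from it. Vessels, mesenchyme and nervous tissue do not come from that ectoderm. The labels name separate biological replicates and call the cells epithelial.

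Semaphorins are secreted or membrane-bound and signal through plexins, in some cases with neuropilins as partners. Ephrins are held on the membrane, so they meet Eph receptors only on touching cells, and both sides can signal. Slits repel cells and axons through Robo receptors. Netrins attract through Dcc and neogenin and repel through Unc5 receptors. In embryonic vessels, ephrin-B2 marks arteries and its receptor EphB4 marks veins, while plexin D1, Robo4 and Unc5b are known from endothelium. The pituitary forms where Rathke's pouch, an outgrowth of oral ectoderm, touches the floor of the hypothalamus, which is itself a source of guidance cues for growing axons.

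Values are tags per 10000000 total tags. Reads recovered from them over the listed genes ranged from 4480809 to 6143263 per library. Without further scaling the median log2 difference of all tested genes between knockout and control was 0.97. Levels below were therefore divided by factors from the trimmed mean of M values (TMM) and are called scaled levels. With those factors that median was 0.04. A subtracted level first takes off a background, the tags per kilobase over 406 olfactory and vomeronasal receptor genes, and is then scaled by TMM. That background was 0.257, 0.395 and 0.156 tags per kilobase in controls 9, 10 and 12, then 0.472 in library 13 and 1.5 in library 16. Library 16 stood apart: its scaled levels lay below all 3 controls for 39.5% of genes and above all 3 for 44.0%. For library 13 these shares were 16.3% and 20.9%.

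The targeted gene was checked first. Itgb1 had scaled levels of 449, 428 and 602 in controls 9, 10 and 12, against 340 and 106 in libraries 13 and 16. Both libraries labelled knockout lay below all 3 controls on this scale. On the deposited scale library 13 held 446 tags, above the 273, 426 and 431 tags of the controls, so the label of library 13 is not borne out on that scale. The region counted spans the whole gene, and tags outside the deleted part still count. All 10 pituitary progenitor genes listed held tags, but this is a low bar, since only 171 of 21022 regions were at 0 throughout. Above background, subtracted levels in controls 9, 10 and 12 were 76.3, 58.2 and 85.7 for Lhx3. For Pitx1 they were 145, 123 and 154, so the pituitary label was met by these markers. Markers of endothelium, head mesenchyme, nervous tissue, pericytes and red cells held tags too. Some, such as Alx1 with subtracted levels of 0, 1.04 and 3.37 in the controls, were near the floor. Others were not: Col3a1 had 405, 489 and 447 and the red cell gene Hba-x 209, 221 and 353, so the libraries held more than epithelium. In such bulk RNA, fewer cells of a type and less RNA per cell cannot be told apart.

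Levels in the controls ranged widely among the members. The regions counted span introns as well as exons, so long genes collect more background. Region length had a median of 39.4 kb over the members and 19.0 kb over all tested genes, and exons made up a median of 17.1% of a member's region. More than 2 times background was reached by 50, 51 and 51 of the 61 members in controls 9, 10 and 12, by 51 in library 13 and by 24 in library 16. In all 3 controls together, 44 members passed that level. Epha6, Sema3e and Plxnb3 passed it in no library. The median subtracted level of the members in the controls was 1.01 tags per kilobase, against 0.836 over all tested genes.

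**Figure D1:**
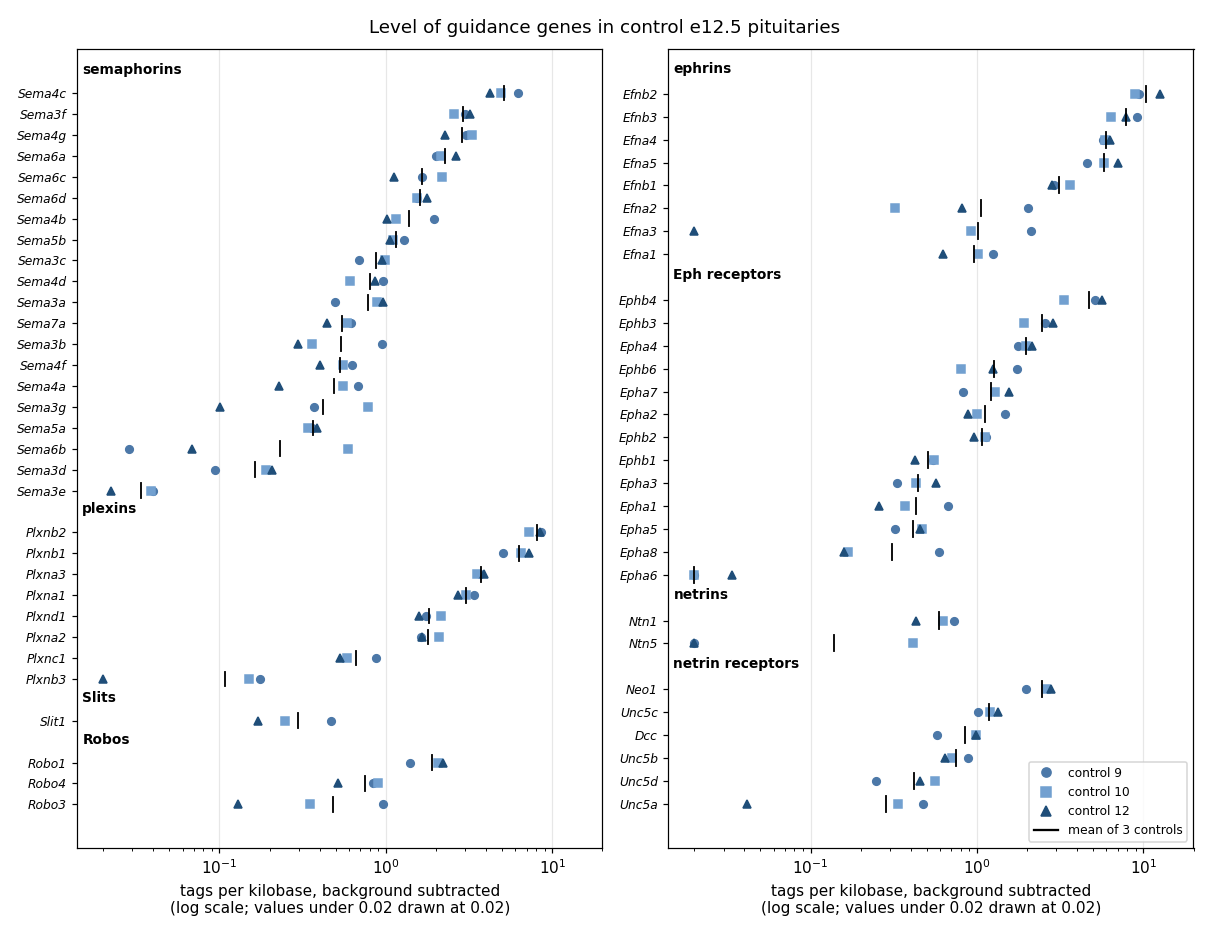
Background-subtracted, TMM-scaled levels of all 61 members in the 3 controls, in tags per kilobase on a log axis, grouped by role. Points are the control libraries, bars their means, and values under 0.02 are drawn at 0.02. Efnb2 and Plxnb2 lead with means of 10.3 and 8.11 tags per kilobase, while Sema3e is near background at 0.0337.

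Among the ligands, ephrins held the highest levels per kilobase of region. Efnb2, the arterial transmembrane ephrin-B2, stood at 10.3 ± 2.1 subtracted tags per kilobase in the controls (SD, n = 3). Efnb3 followed at 7.81 ± 1.4, Efna4 at 5.96 ± 0.30 and Efna5 at 5.79 ± 1.2. Efnb2 and Efnb3 lie within the sum of their SDs, as do Efna4 and Efna5, while Efnb3 and Efna4 differ by slightly more. The SDs are between libraries, which all genes share. Within each of controls 9, 10 and 12 Efnb2 was above Efnb3, at 9.39, 8.87 and 12.7 against 9.14, 6.43 and 7.85. Efna5, which encodes the lipid-anchored ephrin-A5, has a far longer gene and supplied 73.9% of all subtracted ephrin tags in the controls. Efna1, Efna2 and Efna3 were near 1 tag per kilobase, with SDs up to 1.1.

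The semaphorin order began with Sema4c, a transmembrane semaphorin, at 5.11 ± 1.0 subtracted tags per kilobase in the controls. The secreted Sema3f stood at 2.92 ± 0.33 and the transmembrane Sema4g at 2.88 ± 0.54, which overlap. Sema6a was at 2.26 ± 0.33 and Sema6d at 1.61 ± 0.14. At the other end were Sema6b at 0.230 ± 0.32, Sema3d at 0.164 ± 0.061 and Sema3e at 0.0337 ± 0.0098. The secreted cues Ntn1 and Slit1 were also low per kilobase of region, at 0.594 ± 0.15 and 0.295 ± 0.15. Ntn5 gave at most 1 read in a library, and a library with 0 reads allows up to 2.73 deposited tags. It was the 1 member under the test's minimum.

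Receptor levels were led by 2 of the B-type plexins. Plxnb2 stood at 8.11 ± 0.73 and Plxnb1 at 6.27 ± 1.1 subtracted tags per kilobase in the controls, and both encode receptors for class 4 semaphorins. Plxna3 followed at 3.70 ± 0.17 and Plxna1 at 3.03 ± 0.33, both receptors that work with neuropilins. The B-type Plxnb3 was the lowest plexin at 0.108 ± 0.095. The endothelial plexin Plxnd1 was at 1.82 ± 0.29. Its ligand Sema3e was near background.

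Of the Eph receptors, the venous receptor gene Ephb4 was highest at 4.68 ± 1.2 subtracted tags per kilobase. Ephb3 stood at 2.44 ± 0.47 and Epha4, whose product binds ephrins of both classes, at 1.96 ± 0.19. The netrin receptor order was Neo1 (neogenin) at 2.44 ± 0.43, Unc5c at 1.19 ± 0.17, Dcc at 0.847 ± 0.24, Unc5b at 0.745 ± 0.12, Unc5d at 0.420 ± 0.16 and Unc5a at 0.284 ± 0.22. The step from Neo1 to Unc5c exceeds the sum of the neighbours' SDs, as does, narrowly, the step from Unc5b to Unc5d. Robo1 was at 1.89 ± 0.43, Robo4 at 0.752 ± 0.20 and Robo3 at 0.479 ± 0.43. Robo3 and Robo4 are neighbours on chromosome 9, and the table lists all regions on one strand, so tags of overlapping or antisense transcripts cannot be told apart.

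Knockout against control was tested with limma on log2(scaled level + 1) over 19313 genes, with Benjamini-Hochberg adjustment. It called 0.0% of genes and 0 of the 60 members tested, and the lowest adjusted p over all genes was 0.767. At an unadjusted p under 0.05 there were 386 genes, and 2 of them were members, Efna5 and Unc5c. The quasi-likelihood test of edgeR on recovered reads called 0.0% of 15644 genes, with 455 at an unadjusted p under 0.05 and 0 members among them. DESeq2 on recovered reads called 23 genes, all lower in knockout (0.115%), and 0 members, and 2 members had an unadjusted p under 0.05. The p-values measure the spread among these 5 libraries. No member therefore passed the test, and the directions below are descriptions.

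Efna5 and Unc5c had the lowest log2 differences of the 60 tested members, and the 300 bases around their start sites are shown for reference, with CG dinucleotides in capitals. The Efna5 window is chr17:62881268-62881567 on the minus strand and the Unc5c window chr3:141465314-141465613 on the plus strand, both from RefSeq on GRCm38.p6, 5′ to 3′ along the gene.
Efna5: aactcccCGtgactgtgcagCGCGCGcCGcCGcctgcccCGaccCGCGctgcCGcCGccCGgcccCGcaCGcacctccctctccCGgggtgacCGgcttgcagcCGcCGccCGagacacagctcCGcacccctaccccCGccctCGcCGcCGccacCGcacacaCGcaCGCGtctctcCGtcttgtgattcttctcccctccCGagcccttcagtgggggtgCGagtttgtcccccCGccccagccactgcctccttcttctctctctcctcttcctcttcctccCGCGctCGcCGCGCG
Unc5c: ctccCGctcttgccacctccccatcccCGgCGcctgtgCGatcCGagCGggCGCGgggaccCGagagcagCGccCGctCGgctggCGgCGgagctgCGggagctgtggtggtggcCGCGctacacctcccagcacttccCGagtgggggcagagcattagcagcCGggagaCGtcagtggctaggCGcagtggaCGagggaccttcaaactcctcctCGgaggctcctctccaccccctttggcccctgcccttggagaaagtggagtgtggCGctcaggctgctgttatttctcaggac
The Efna5 window holds 38 CG dinucleotides at a GC content of 73.3%, and the Unc5c window 24 at 68.3%. The median window held 19.5 over the members (66 windows for 52 of the 61 genes) and 7 over all 32851 windows. The GC box GGGCGG, searched on both strands, has 4 matches in the Efna5 window and 0 in the Unc5c window. It occurs in 71.2% of the member windows and in 35.7% of all windows. The homeodomain core TAATCC, recognised by factors such as Pitx1, occurs in 3.03% of member windows and 7.06% of all windows. Another homeodomain core, TAATTA, occurs in 4.55% and 5.29%, and the E-box CACGTG in 6.06% and 7.15%. The letters alone are a description and show no binding.

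Ephrin-A5 tags lay lower in both libraries labelled knockout. The Efna5 region (mm9 chr17:62952706-63230266) had scaled levels of 1497, 1889 and 2654 in controls 9, 10 and 12, then 1406 in library 13 and 518 in library 16. Library 13 sat just under the lowest control and library 16 far under it, so the groups do not overlap. The log2 difference was -1.20 (SE 0.51), with an adjusted p of 0.767 in limma. After background subtraction the levels were 1269, 1607 and 1945 against 1111 and 532, with a log2 difference of -1.04 (SE 0.43). Without library 16 the difference of Efna5 was -0.48 with an adjusted limma p of 1.0. Without library 13 it was -1.92 with an adjusted limma p of 0.0310.

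The netrin receptor gene Unc5c (mm9 chr3:141129328-141497886) lay lower in both libraries labelled knockout, by a like amount on the scaled levels only. Its scaled levels were 563, 635 and 741 in controls 9, 10 and 12, then 380 and 354 in libraries 13 and 16. Both of these lie well under the lowest control. The log2 difference was -0.81 (SE 0.36), with an adjusted limma p of 0.767. Subtracted levels of Unc5c were 374, 441 and 496 against 210 and 77.3, a log2 difference of -1.76 (SE 0.46) with an adjusted limma p of 0.815. In library 16 this region held only 1.13 times background. Most of its scaled level there equals the background estimate, and the subtracted value rests on a small difference. Without library 16 the scaled difference of Unc5c was -0.76, and without library 13 it was -0.86, with adjusted limma p values of 1.0 and 0.0790.

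**Figure D2:**
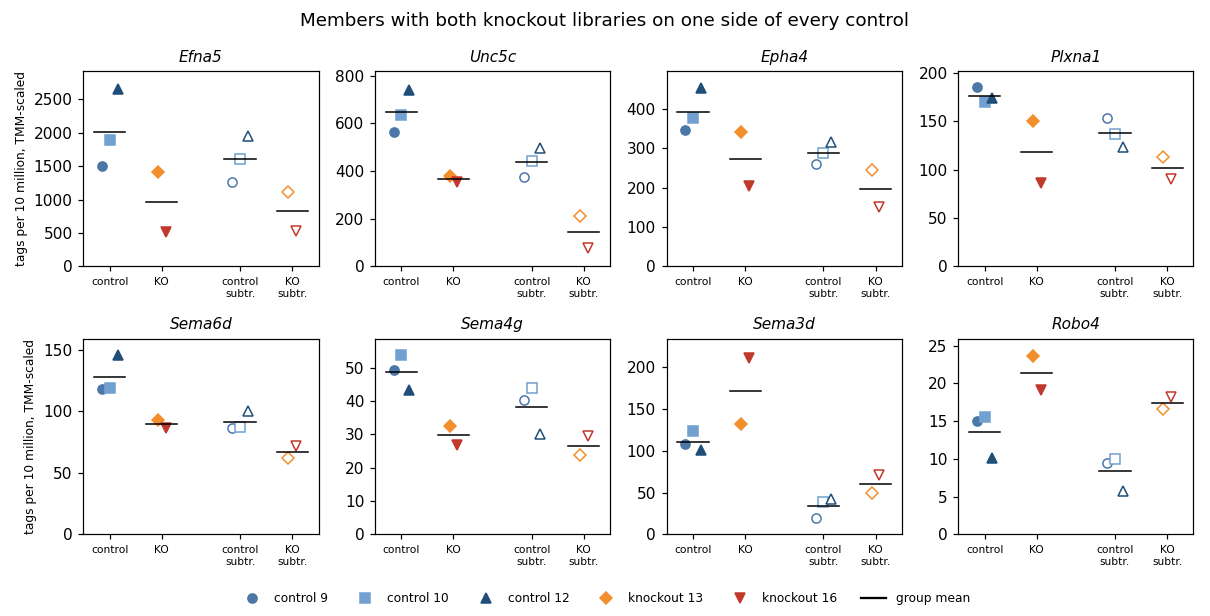
Levels of 8 members in each of the 5 libraries, in tags per 10000000 total tags on linear axes from 0, with filled points for scaled levels, open points for background-subtracted levels and bars for group means. Efna5 and Unc5c lie below all 3 controls in both libraries labelled knockout, while Robo4 and Sema3d lie above.

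Without overlap between the groups, 7 of 60 members lay below all 3 controls in both libraries labelled knockout on the scaled levels, where 6.8% of all genes did. Another 2 lay above, where 8.5% of all genes did. After subtraction 6 of 56 lay below (7.99% of genes) and 3 above (7.95%). On both scales at once, 6 lay below (5.83% of genes) and 2 above (4.87%), of 56 members. The counts below are somewhat over those shares and the counts above somewhat under, by few genes. The 6 are Efna5, Unc5c, Epha4, Plxna1, Sema6d and Sema4g, and the 2 are Sema3d and Robo4. Sema4c lay below on the scaled levels alone.

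Epha4, a receptor for ephrins of both classes including ephrin-A5, had scaled levels of 346, 378 and 454 in the controls, then 341 and 205 in libraries 13 and 16. Library 13 is only just under control 9. The log2 difference of Epha4 was -0.56 (SE 0.38), with -0.19 without library 16 and -0.92 without library 13. The semaphorin receptor gene Plxna1 had 186, 170 and 174 in the controls, against 150 and 86.2, a log2 difference of -0.63 (SE 0.38). The controls of Plxna1 are close to each other, and library 16 is far from them. Without library 16 the difference of Plxna1 was -0.23, and without library 13 it was -1.02.

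Sema6d, a transmembrane semaphorin that binds class A plexins, had scaled levels of 118, 119 and 146 in the controls, then 92.9 and 86.2. The scaled values of libraries 13 and 16 are close, as for the scaled values of Unc5c, and the log2 difference was -0.50 (SE 0.35). Sema4g had 49.4, 53.9 and 43.2 in the controls against 32.6 and 26.9, a log2 difference of -0.70 (SE 0.41). After subtraction Sema4g stood at 40.3, 43.9 and 30.2 against 23.6 and 29.4, so library 16 came within a tag of control 12.

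In the other direction, Sema3d, a secreted semaphorin, had scaled levels of 108, 124 and 102 in the controls, then 132 and 212. Its log2 difference was 0.59 (SE 0.37), with 0.25 without library 16 and 0.93 without library 13. Sema3d held 1.24, 1.53 and 2.28 times background in the controls and 1.22 times in library 16, where most of its tags equal the background estimate. Robo4, the endothelial Robo, had 15, 15.5 and 10.2 in the controls against 23.6 and 19.1, from 10, 17 and 8 recovered reads against 34 and 37. Its log2 difference was 0.63 (SE 0.50), and after subtraction 1.0 (SE 0.56). Neither passed the test.

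By family the members centred near all genes. The median log2 difference of the 60 tested members was -0.00, against 0.04 over all genes tested, and 29 members were above the median gene and 31 below. After subtraction the medians were -0.02 for the members and -0.03 for all genes. Semaphorin-plexin genes had a median of -0.08, ephrin-Eph genes -0.01, netrin genes 0.11 and the 4 Slit-Robo genes 0.60. The Slit-Robo median rests on Slit1, Robo3 and Robo4, which are low in the controls, while Robo1 had -0.41. It was 0.33 without control 12 and 0.97 after subtraction. Ligands had a median of 0.06 and receptors -0.08.

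The summed levels of ephrins, plexins, netrin receptors and Robos were lowest in library 16. Summed over the 8 ephrins, subtracted levels were 1819, 2102 and 2597 in the controls, against 1828 and 911 in libraries 13 and 16. Library 13 lies within the controls and library 16 below them. Efna5 supplied 73.9% of the subtracted ephrin tags in the controls, so this sum mostly follows that gene. After subtraction 6 of the 8 ephrins lay above the median gene and 2 below, with a median log2 difference of 0.17. Summed over the 8 plexins the values were 1062, 1105 and 1026 in the controls, against 1114 and 862. The 6 netrin receptors summed to 1547, 2324 and 2328 in the controls, against 1994 and 799. The 3 Robos summed to 560, 806 and 853 in the controls, against 832 and 368. Semaphorins summed to 1307, 1364 and 1434 in the controls, with 1266 and 1431 in libraries 13 and 16. Eph receptors summed to 1298, 1402 and 1520 in the controls, with 1355 and 1322. Slit1 and the netrins were highest in library 16.

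**Figure D3:**
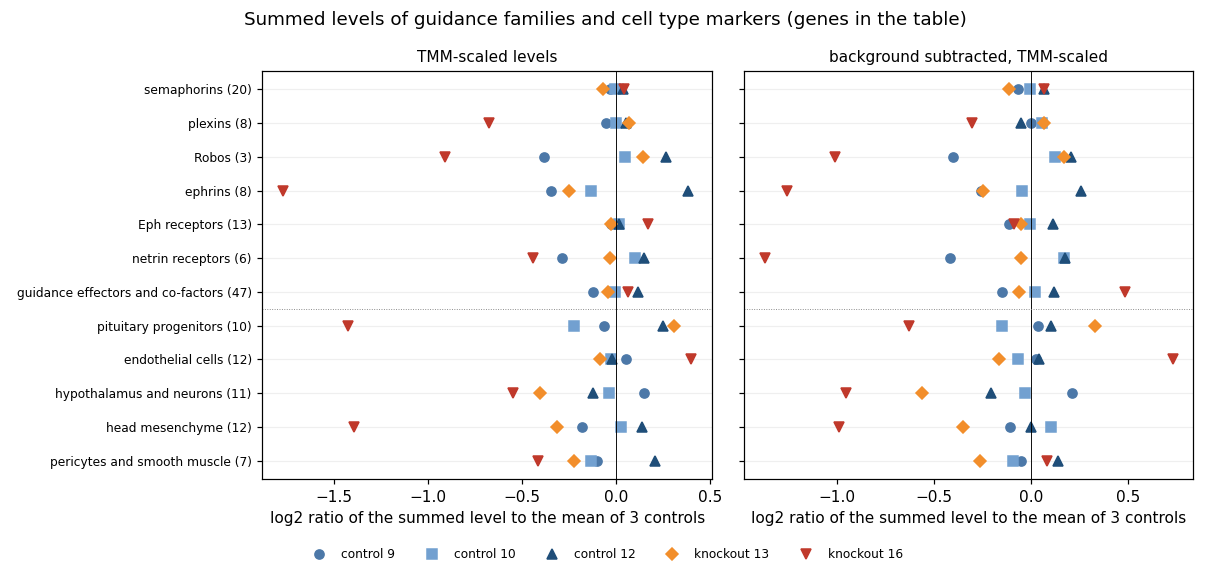
Summed levels of guidance families and of cell type marker lists in each library, as log2 ratios to the mean of the 3 controls, scaled (left) and background subtracted (right). The number of genes is in parentheses. Library 16 lies far from the controls for ephrins, Robos and pituitary progenitors, and after subtraction for netrin receptors. Library 13 lies within or near the controls in the guidance families.

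The sign of 15 named members turned when library 16 was left out. Members named because both libraries labelled knockout lay on one side of every control keep their sign largely by that rule. The share over all genes was not taken, so the count is a description. Efnb2 had scaled levels of 452, 435 and 727 in the controls, against 668 and 173 in libraries 13 and 16. Library 13 is inside the controls and library 16 is far below. The log2 difference of Efnb2 was -0.62 (SE 0.54), and it was 0.35 without library 16. Plxnb2 had 238, 206 and 282 in the controls, then 278 and 72.8, with a log2 difference of -0.75 (SE 0.52) that became 0.21 without library 16. The venous receptor gene Ephb4 had 141, 96.8 and 181 in the controls, then 159 and 53.7, with -0.54 (SE 0.50) that became 0.24. Neo1 had 412, 524 and 633 in the controls, then 551 and 204, with -0.62 (SE 0.46) that became 0.10.

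Some genes that were low in the controls went the other way in library 16. Others did not: the log2 ratio of library 16 was -0.53 for Dcc and 0.04 for Epha3. After subtraction these ratios were -2.56 and -2.14. Unc5a, a repulsive netrin receptor gene, had scaled levels of 52.4, 42.9 and 15.2 in the controls, then 40.9 and 106 in libraries 13 and 16. Its log2 difference of 1.0 (SE 0.60) was the highest of the members with at least 20 tags. It was 0.31 without library 16, 1.67 without library 13, 0.47 without control 12 and 1.91 after subtraction. Slit1 had 133, 95.9 and 63.4 in the controls, then 88.0 and 217, with 0.56 (SE 0.48). Both had their single high value in library 16.

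Across the 60 tested members, the log2 ratio of library 16 to the control mean had a Spearman correlation of -0.91 with the control level per kilobase on the scaled levels and -0.43 after subtraction. For library 13 these were 0.13 and 0.23. The points are genes of the same libraries and the control mean enters both axes, so the values are descriptions. Among the 30 members of higher control level the median log2 ratio was -0.84 in library 16 and 0.06 in library 13. Among the 30 of lower level it was 0.62 and -0.05. After subtraction the medians of library 16 were -0.37 and 1.05. The background of library 16 was the highest of the 5, and its part in these ratios was not tested beyond this subtraction.

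**Figure D4:**
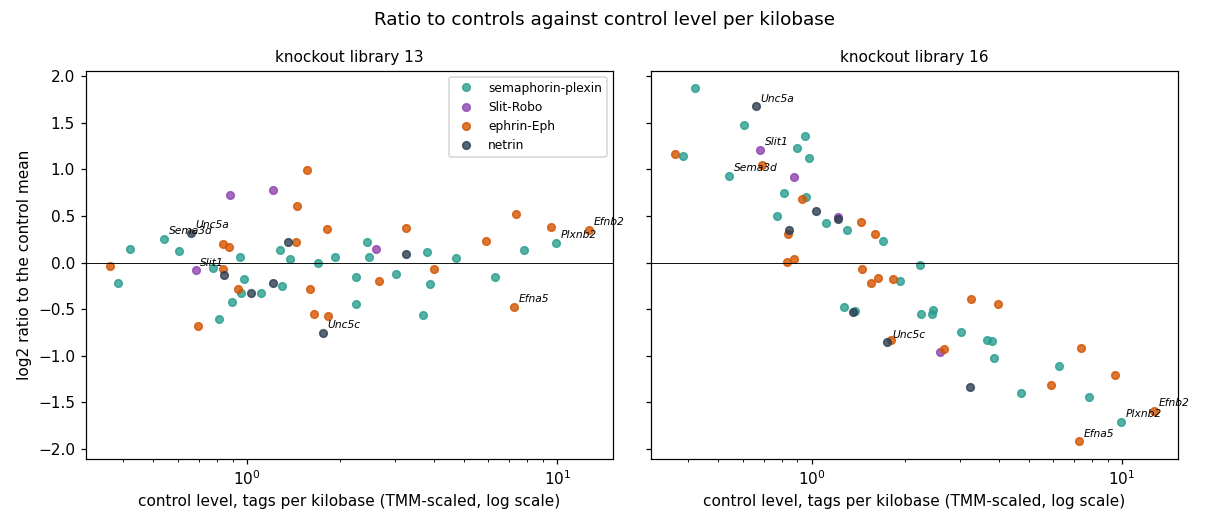
Log2 ratio of each library labelled knockout to the mean of the 3 controls, against the member's control level per kilobase on a log axis, for 60 members. Library 16 slopes downward (Spearman -0.91 on scaled levels), while library 13 shows little slope (0.13).

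Each library was also set against the controls alone. On scaled levels library 13 lay below all 3 controls for 15 of 60 members (16.3% of genes) and above for 11 (20.9%), and library 16 below for 26 (39.5%) and above for 24 (44.0%). After subtraction library 13 lay below for 18 of 56 (21.1%) and above for 13 (23.7%), and library 16 below for 25 (42.9%) and above for 22 (40.7%). Without library 13, limma called 12.6% of 19298 genes and 7 of 60 members, all lower, where 11.6% of genes were called lower. The 7 are Efna5, Efnb2, Neo1, Plxna1, Plxna3, Plxnb1 and Plxnb2, with log2 differences from -1.92 to -1.02. With background subtracted as well, it called 23.4% of 14554 genes. There 13 of 58 members were called lower (17.4% of genes) and 4 higher (6.01%), with Ephb1, Ephb2, Sema5b and Sema7a the 4 higher. Without library 16, limma called 3 genes, all lower (0.0159%), and 0 members. With background subtracted and library 16 left out it called 2, both lower (0.0149%), and 0 of 56 members. In each of these fits 1 library labelled knockout is left and is assumed to vary like the controls.

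Vascular ligands and receptors were read as a group from the named list. Efnb2, Ephb4 and Plxnd1 lay within the controls in library 13. Plxnd1 had scaled levels of 91.3, 109 and 91.4 in the controls, then 101 and 67.6, a log2 difference of -0.22 (SE 0.38). Unc5b had 94.3, 80.4 and 73.6, then 70.7 and 114, a log2 difference of 0.12 (SE 0.39). Sema3e had 108, 101 and 57.1, then 73.5 and 190, all at about background. On scaled levels, only Robo4 of this vascular set had both libraries labelled knockout on the same side of all 3 controls, and it did not pass the test. After subtraction Sema3e stood at 9.20, 8.96 and 5.17 in the controls and at 0 in libraries 13 and 16. Those values lie below the controls but are under the minimum mean of 5 for that fit, so Sema3e is not among the 56 members counted there.

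Genes that act downstream of these receptors or beside them were read from a list of 50, of which 47 were in the table. The test called 0 of the 47, and 20 lay above the median gene and 27 below, with a median log2 difference of -0.03. Dpysl2 encodes CRMP2, a tubulin-binding effector of semaphorin signalling. Its scaled levels were 394, 344 and 367 in the controls, then 292 and 153, with a log2 difference of -0.80. The guanine nucleotide exchange factor gene Trio, an effector of netrin signalling, had -0.45, and the Slit-Robo GTPase-activating gene Srgap3 had -0.48. The adaptor gene Nck1 had -0.53. In these 4 both libraries labelled knockout lay below all 3 controls on both scales, and in Draxin, a secreted ligand of Dcc, and Vav3 both lay above. Over all genes 5.83% lay below and 4.87% above in this way, so 4 and 2 of 47 are near the background. After subtraction the log2 difference of Nck1 was -0.85.

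Marker lists of other cells were read beside these values, and the test called 0 genes in each list. Over 11 hypothalamic and neuronal genes the summed scaled level was 1449, 1270 and 1198 in the controls, against 986 and 893 in libraries 13 and 16. That sum rests on Map2: without it the other 10 genes summed to 852, 632 and 501 in the controls, then 471 and 619, so library 16 lay within the controls. The median log2 difference of the 11 genes was -0.17, with 4 above the median gene and 7 below. The 4 of 11 with both libraries labelled knockout below all 3 controls were Map2 at -0.77, Islr2 at -2.22, Nkx2-1 at -1.82 and Rax at -1.86. Nkx2-1 and Rax are genes of the hypothalamic floor. Over all genes 6.8% lay below in this way on scaled levels. The neuronal genes Elavl4 and Gap43 had 0.38 and 0.30. For 12 head mesenchyme genes the sums were 1165, 1348 and 1452 in the controls, then 1061 and 501, below all 3 controls in both libraries. This held without Col3a1, the gene with the most tags, at 708, 792 and 848 in the controls, then 606 and 398. The part of both lists in the values of Efna5, Unc5c and Epha4 was not tested. For 12 endothelial genes the sums were 822, 778 and 782, then 747 and 1048, and their part in the Robo4 values was not tested. The 10 pituitary progenitor genes summed to 819, 733 and 1020 in the controls, against 1063 and 319. No marker of these 4 lists was at 0 in all 5 libraries. Red cell markers had summed scaled levels from 307 to 638 in the controls, with 227 and 368 in libraries 13 and 16. After subtraction their sums were 262 to 470 in the controls, with 178 and 614, so library 16 lay above the controls. Pericyte markers had summed scaled levels from 410 to 518 in the controls, with 385 and 336. After subtraction the pericyte sums were 306 to 359 in the controls, with 272 and 346, so library 16 lay within the controls.

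The authors' deposited table of changed genes lists 1140 genes and holds 6 that match the symbol pattern. The all-gene table has 20097 gene symbols, 61 of them members. Set against these totals, the members are over the rate of all genes by few genes at most. The count is not read as a result about the members. Unc5c has a log2 fold change of -1.0 and a p-value of 0.000113 in the authors' deposited table. Robo1 has -0.36 and 0.00113 in the authors' deposited table. The authors' deposited table gives Plxnb1 and Sema5b a log2 fold change of 1.58 each, with p-values of 0.00136 and 0.00169. Plxnd1 has 3.46 in the authors' deposited table, with a linear fold of 11 and a p-value of 9.09e-06, the lowest of the 6. That fold rests on values of 2 for control and 22 for knockout, and the second linear fold column gives 7.48. The 2 linear columns differ for each of the 6 genes, as for Unc5c at 0.5 and 0.36. Plxna4, listed there at -0.22, has no row in the all-gene table. Unc5c and Robo1 had the same sign in the fit to the 5 libraries, as did Sema5b at 0.11. Plxnb1 and Plxnd1 had the opposite sign, at -0.65 and -0.22.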

How the data were processed

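Libraries were strand-specific (ScriptSeq v2), from total RNA after Ribo-Zero depletion, and were run on an Illumina HiSeq, per the labels' protocols. Bowtie2, HOMER, edgeR and mm9 appear in the submitters' processing notes, without roles. Per the file headers, the deposited all-gene signal is in tags per 10000000 total tags. All of these deposited values (100.00%) were whole reads within 0.01 when multiplied by 1.1. For changed genes, the authors deposited a log2 value, 2 linear fold (ratio) columns and a p-value. It also holds a value per genotype, deposited without a unit and treated as a score. The libraries behind that table are not stated in the labels or headers.

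Of 21022 regions, 171 were at 0 throughout. No sample column went unused. Controls differed from each other by a chi-square of 9.10 to 34.3 per degree of freedom, so none was merged. Tests used limma 3.58.1 in R 4.3.3, with the mean-variance trend, on log2(scaled value + 1), for genes of mean at least 1, at a threshold of 0.05. That scale understates changes of low genes. TMM factors (edgeR 4.0.16) were 0.607, 0.996, 0.716, 1.31 and 1.76 for libraries 9, 10, 12, 13 and 16. Subtraction had a floor of 0, and its fit kept means of at least 5 (14569 genes). Exon lengths came from GENCODE and promoter windows from RefSeq, whose build differs from mm9. Region coordinates are the deposited ones. On simulated counts of knockout against control over 15880 genes, 32% of genes changed 2-fold and 87% changed 4-fold were recovered, with 1 false call. The simulation used an assumed dispersion for all genes, not fitted to these libraries. It held no difference in background and no outlying library, so these shares can overstate recovery in the real libraries.

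Alternatives were edgeR and DESeq2 (1.42.0) on recovered reads, other factors, pseudocounts, filters and a looser threshold, and leaving out each library. Subtraction without library 13 or 16, and marker sums without their most abundant gene, were added after the data were seen. The named members were the 2 highest per kilobase of each role and the 3 highest and 3 lowest log2 differences at a control mean of at least 20 tags. Those outside the controls on both scales and those in the authors' deposited table were added. So were the vascular genes Efnb2, Ephb4, Sema3e, Plxnd1, Robo4 and Unc5b. Members, lists and rules were chosen with earlier results of these data known. Other members named in the text were chosen after their values were seen.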

Additional observations from a re-analysis of the deposited data

How the results depend on the processing

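No member was called in any fit with both libraries labelled knockout, and members were called only in fits without library 13. Genes called ranged from 0 to 2426 over fits leaving out 1 library (3 without library 16), and members called from 0 to 7. DESeq2 on recovered reads called 23 genes. With background subtracted and library 13 left out, limma called 3406 genes and 17 members, and with library 16 left out instead, 2 genes. Subtraction moved the median log2 difference to 0.0128 for semaphorin-plexin genes, -0.19 for ephrin-Eph, -0.11 for netrin, 0.97 for Slit-Robo, 0.20 for ligands and -0.30 for receptors. The receptor median was -0.0568 without factors, taken relative to the median gene, and -0.0409 in DESeq2. Leaving out 1 library, medians ranged from -0.12 to 0.0155 over all members, -0.18 to 0.0271 for semaphorin-plexin, -0.18 to 0.17 for ephrin-Eph, -0.13 to 0.35 for netrin, 0.33 to 0.77 for Slit-Robo, -0.0758 to 0.15 for ligands and -0.17 to 0.0802 for receptors. Without subtraction the median control level was 1.45 tags per kilobase. The cause of these shifts was not tested.

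Signs turned for Ephb3, at 0.00815 without factors, 0.00804 with DESeq2's size factors, 0.35 after subtraction, 0.0638 in edgeR and 0.0264 in DESeq2, and for Efnb3 at 0.0012 after subtraction. Without library 16 the sign turned for 15 named members, a count that the naming rules partly fix. Over fits without 1 library, Efnb2 ranged from -1.59 to 0.35, Efnb3 from -1.21 to 0.38, Ephb3 from -0.39 to 0.37, Ephb4 from -1.32 to 0.24, Neo1 from -1.34 to 0.10 and Ntn1 from -0.33 to 0.55. Plxnb1 ranged from -1.44 to 0.14, Plxnb2 from -1.71 to 0.21, Plxnd1 from -0.51 to 0.0634, Robo1 from -0.96 to 0.15 and Sema3e from -0.22 to 1.14. Sema3f ranged from -0.84 to 0.11, Sema5b from -0.0095 to 0.23, Slit1 from -0.0829 to 1.21 and Unc5b from -0.22 to 0.47. Without factors and before the median gene is taken off, the log2 difference of Efna5 was -0.19 and of Unc5c 0.20. No paired analysis was possible because the groups share no replicate numbers. On simulated counts with an assumed dispersion and no outlying library, the test recovered 32% of 2-fold changes. In the main fit on scaled levels, all tested members but Efna5 and Plxnb3 differed by less than 2-fold. After subtraction others passed 2-fold too, among them Unc5c at -1.76, Unc5a at 1.91 and Dcc at -1.13.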
